A study of Mus musculus with 2 samples.

Results

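Transcript levels of the AP-1 transcription factors were set side by side in activated mouse B cells transduced to express the microRNA miR-181b and in B cells given a control vector. The members were the 8 genes Fos, Fosb, Fosl1, Fosl2, Jun, Junb, Jund and Batf, with all their probes on a whole mouse genome array. By the array design's gene names 7 of the 8 genes and 9 probes were found. The probe of Jund carries the older name Jund1 there and was added through its RefSeq accession, which gives 10 of 41174 probes. All 10 stood well above background on each array in the miR-181b and the control RNA, so all 8 members are among the 17579 measured genes.

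The miR-181b RNA came from B cells transduced with the miR181b-GFP vector and the control RNA from B cells transduced with the control-GFP vector. Both were primary spleen B cells of C57/BL6 mice, obtained by removal of cells that carry CD43, grown in lipopolysaccharide (LPS, 25 µg/ml) with interleukin-4 (IL-4, 10 ng/ml), and exposed to virus for 20 h with polybrene (8 µg/ml). Cells positive for green fluorescent protein (GFP), which marks uptake of the vector, were sorted 2 days after transduction. The series holds 1 RNA per vector, hybridised together on 2 arrays with exchanged dyes, Cy5 labelling the miR-181b RNA on array 1 and Cy3 on array 2. Both arrays repeat the same pair of extracts, so no test between conditions was possible, and the differences describe these RNAs. The miRNA's own level, the number of mice and the level of the vector were not analysed here.

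AP-1 is a dimer of basic leucine zipper proteins. The Jun proteins pair with each other or with a Fos protein, whereas Fos proteins need a partner. Fos, Fosb, Jun and Junb are immediate early genes, transcribed within minutes of a signal through growth factor, antigen or Toll-like receptors and then switched off, and their short-lived mRNAs decay quickly. BATF lacks the activation domain of Fos, pairs with Jun proteins and binds DNA together with IRF4 or IRF8. In B cells it is required for class switch recombination.

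A microRNA pairs with its targets mainly through its seed, bases 2 to 8 from the 5′ end. The seed shown in capitals is the same in all 4 mature mouse miR-181 sequences of RefSeq (GRCm38.p6), and they are printed because any seed match in a member would be shared by the family.
miR-181b: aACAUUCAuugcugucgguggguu
miR-181a: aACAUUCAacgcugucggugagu
miR-181c: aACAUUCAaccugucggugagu
miR-181d: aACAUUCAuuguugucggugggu
The DNA form of the match to this seed, TGAATGT, occurred in 0 of the 10 AP-1 probes and in 0.954% of all probes of 60 bases, on the strand the probes give. The probes cover a small part of each transcript, so this says only that these letters are not in those windows.

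For the 6 members that were never saturated, the RNAs differed little, while for Junb and Jund the scanner's ceiling leaves the size of the difference unmeasured by the ratio of the dyes. In RNA from a bulk population, fewer cells that express a gene and less RNA per cell cannot be told apart. Log2 ratios are of miR-181b RNA to control RNA, after background correction and loess, and ± gives the distance of either array from the mean of both, which is a technical spread. A gene with several probes is represented by the brightest. A member was called when its mean passed 1.5-fold and both arrays had one direction. By this threshold 0 of 8 members were lower in miR-181b cells, where 0.512% of all measured genes were, and 0 of 8 were higher, where 0.819% of all genes were. The median of the 8 means was -0.07 (array 1 alone, -0.09; array 2 alone, -0.07), and the median of all measured genes was -0.01. Of the 8 members, 4 were lower on both arrays (27.4% of all genes were), 1 was higher on both (24.4% of all genes) and 3 had opposite signs. When all measured probes of a gene were averaged, 6 of 8 were lower and 1 higher on both arrays, where 27.3% and 25.1% of all genes were. The saturated Junb was among the 6, at -0.01 on array 2. With 8 genes, the difference of these counts from the background was not tested. Of the 6 members that were never saturated, 4 were lower and 1 higher on both arrays, where 28.0% and 24.8% of never saturated genes were, and 0 passed 1.5-fold, where 0.513% passed downwards and 0.776% upwards. Their means lay between -0.19 and 0.17. Counted as probes, 6 of 10 were lower and 1 higher on both arrays, where 26.2% and 23.8% of measured probes were, and 0 passed 1.5-fold, where 0.43% passed downwards and 0.712% upwards.

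**Figure D1:**
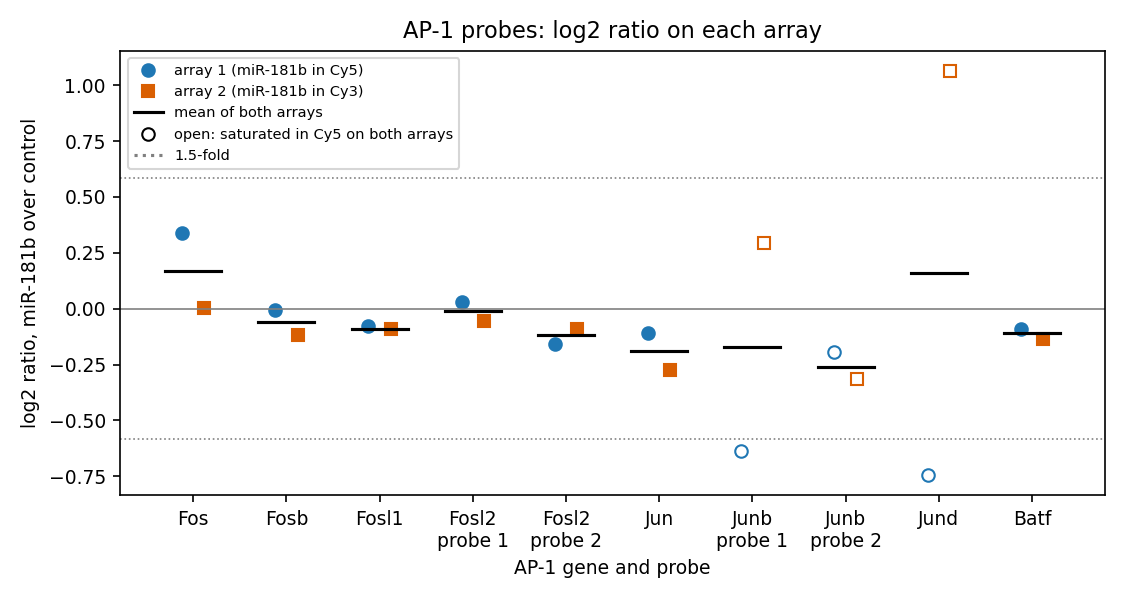
Log2 ratio of miR-181b over control (vertical axis) for the 10 AP-1 probes (horizontal axis). Circles are array 1, squares array 2, bars the mean of both and dotted lines 1.5-fold, and open symbols mark the 3 probes saturated in Cy5 on both arrays. All bars lie inside the dotted lines, and the arrays are farthest apart for Jund.

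Among the Fos family, Fos itself was read from the most spots, and the arrays disagreed on it. Fos, the founding immediate early gene of the family, lies on chromosome 12 (85473890 to 85477274, GRCm38.p6), and its probe was printed 10 times on each array. Its log2 intensities, scaled between arrays, were 9.89 and 9.64 in miR-181b RNA on arrays 1 and 2, against 9.55 and 9.64 in control RNA. The log2 ratio was 0.34 on array 1 and 0.005 on array 2, a mean of 0.17 ± 0.17, or 1.13-fold higher in miR-181b cells. The miR-181b RNA was thus brighter on array 1 and the RNAs were level on array 2. On array 1 the 10 spots ranged from 0.23 to 0.38 (SD 0.048) and all 10 were above 0. On array 2 they ranged from -0.06 to 0.06 (SD 0.032), with 7 above and 3 below 0. The arrays therefore differed by 0.332, which is larger than the whole range of spots on either array, and the spots of the 2 arrays did not overlap. Among 150 never saturated probes printed 10 times, the median gap between arrays was 0.14, and 28 of them, Fos included, had a gap at least as large as that of Fos. Fos was counted as higher on both arrays only because of the 0.005, and with a normexp offset of 20 its value on array 2 was slightly below 0.

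Jun, the main partner of the Fos proteins, lies on chromosome 4 (95049036 to 95052222) and was also printed 10 times. Its log2 intensities were 10.40 and 10.34 in miR-181b RNA, against 10.51 and 10.62 in control RNA, so that miR-181b RNA was dimmer on both arrays. The log2 ratio was -0.11 on array 1 and -0.27 on array 2, with a mean of -0.19 ± 0.08 (0.877 of the control level). The spots ranged from -0.15 to -0.01 on array 1 (SD 0.047) and from -0.30 to -0.25 on array 2 (SD 0.018). All 10 spots were below 0 on each array. Jun thus had the same direction in each spot, but its size was small: 10.7% of all measured genes had a mean at or below that of Jun. The gap between arrays, 0.167, was exceeded or equalled by 67 of the 150 probes (Jun included).

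**Figure D2:**
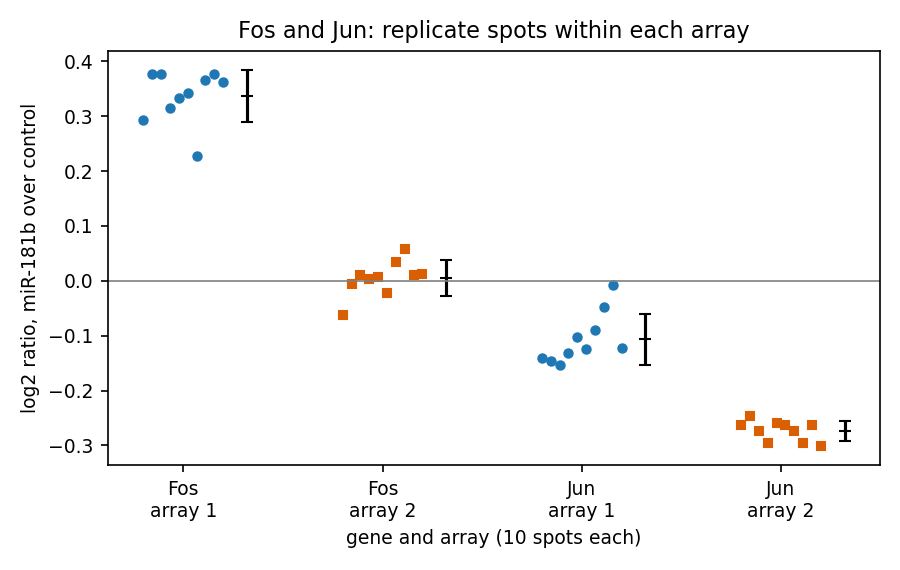
Log2 ratio of miR-181b over control (vertical axis) in the 10 spots of Fos and of Jun on each array (horizontal axis). Points are spots, and the bars beside them give the mean ± SD over spots. The spots of Fos lie above 0 on array 1 and around 0 on array 2, while those of Jun lie below 0 on both.

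The remaining Fos-family genes were nearly level between the RNAs. Fosb, an immediate early gene like Fos, was at -0.008 on array 1 and -0.117 on array 2 (-0.06 ± 0.05). Its log2 intensities were 8.55 and 8.43 in miR-181b RNA, against 8.56 and 8.55 in control RNA. Fosl1, which encodes Fra-1, was at -0.08 on array 1 and -0.09 on array 2 (-0.09 ± 0.01). Both arrays gave nearly the same value, with miR-181b RNA on the lower side, and 27.5% of all measured genes had a mean at or below it. Fosl1 was dim, at 52.3 to 89.9 units above local background, where an offset of 50 draws ratios towards 0. With an offset of 20 Fosl1 was at -0.11 and -0.13, and the reason for differences between settings was not tested. The scanner's own log ratio for Fosl1 was -0.12 on array 1 and -0.17 on array 2. Both were smaller in size than the scanner's errors of 0.23 and 0.24.

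Fosl2, which encodes Fra-2, was the dimmest signal among the members, and its 2 probes were at -0.01 ± 0.04 and -0.12 ± 0.03. The brighter probe had 0.03 on array 1 and -0.05 on array 2, and the dimmer probe had -0.16 and -0.09. Their intensities above local background were between 30.7 and 64.4 units, where an offset of 50 added before the logarithm draws ratios towards 0 by construction. With an offset of 20 the brighter probe was at 0.04 on array 1 and -0.08 on array 2. The scanner's own log ratio, which has no such offset, was -0.18 and -0.24 for the brighter probe and -0.66 and -0.18 for the dimmer one. The scanner's error model gave errors of 0.28 to 0.33 (log2) for these values within an array. All 4 values by the scanner were negative, and 3 of the 4 were smaller in size than their error. The reason for the difference between the settings was not tested.

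Junb and Jund encode the other Jun proteins, both of which pair with Fos proteins and BATF, and their signals reached the scanner's ceiling. Both probes of Junb and the probe of Jund were saturated in Cy5 on both arrays and in Cy3 on neither. On array 1 that ceiling cut the miR-181b RNA and on array 2 the control RNA. Jund was at -0.74 on array 1 and 1.06 on array 2 (0.16 ± 0.90), and its mean was -0.03 after scaling between arrays and -0.28 without loess. The brighter Junb probe was at -0.64 and 0.29 (-0.17 ± 0.47) and the other at -0.20 and -0.32 (-0.26 ± 0.06). Jund and the brighter Junb probe thus had opposite signs on the arrays, while the other Junb probe was below 0 on both. The medians of saturated genes were also opposed. In the 376 genes saturated in Cy5 on both arrays the median ratio was -0.61 for array 1 but 0.75 for array 2.

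The Cy3 channel, which was not saturated for these probes, gave another view, chosen after the data had been seen. It sets miR-181b RNA on array 2 against control RNA on array 1. For the brighter Junb probe the intensity above local background in Cy3 was 33334 in miR-181b RNA, against 52758 in control RNA, while in Cy5 it was 65160 for both RNAs. For the other Junb probe it was 22135 in miR-181b RNA, against 39022 in control RNA. After quantile normalisation of Cy3 between the arrays, the log2 ratios of Junb were -0.51 and -0.68 at these probes. Both probes were thus lower in miR-181b RNA in this channel, 1 of them past 1.5-fold, where 0.666% of measured probes were. The brighter probe stands for the gene and did not pass, where 0.774% of genes did. In Cy3, 0 members were 1.5-fold higher, where 1.29% of genes were. Of 245 genes saturated in Cy5 on both arrays and never in Cy3, whose median was -0.10, 5 were at or below Junb's -0.51, Junb included. Jund was at 0.19 in Cy3 after this normalisation, with 55973 units in miR-181b RNA, against 56797 in control RNA. Before normalisation the miR-181b RNA was thus slightly dimmer, so the positive sign came with the normalisation. Both values were not far below the 65163 and 65164 units reached in Cy5, which leaves little range for Jund. In the Cy3 comparison each RNA was read on a different array, so that spot and array differences do not cancel, and there was 1 value per probe and no repeat of it.

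After loess, Batf had almost the same value on both arrays. Its log2 intensities were 14.87 and 14.83 in miR-181b RNA, against 14.96 in control RNA on each array, and its log2 ratios were -0.09 and -0.14 (-0.11 ± 0.02). The miR-181b RNA was dimmer on both arrays, and 21.4% of all measured genes had a mean at or below that of Batf. Without loess, Batf was at -0.16 on array 1 and -0.92 on array 2. By the scanner's own log ratio Batf was at -0.19 and -0.07, so the ± value holds for the loess setting only. Its probe was bright but not saturated, and in Cy3 alone it was at -0.22 and in Cy5 alone at -0.14. The sign was the same with each dye for Jun too (-0.18 in Cy3 and -0.23 in Cy5). So it was for Fosl1 (-0.13 and -0.03), the dimmer Fosl2 probe (-0.12 and -0.15) and Fos (0.07 and 0.24). For the brighter Fosl2 probe the sign differed (-0.05 and 0.04), and Fosb was at -0.13 in Cy3 but level in Cy5. These values recombine the same intensities as the array ratios, so they are not a separate measurement.

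**Figure D3:**
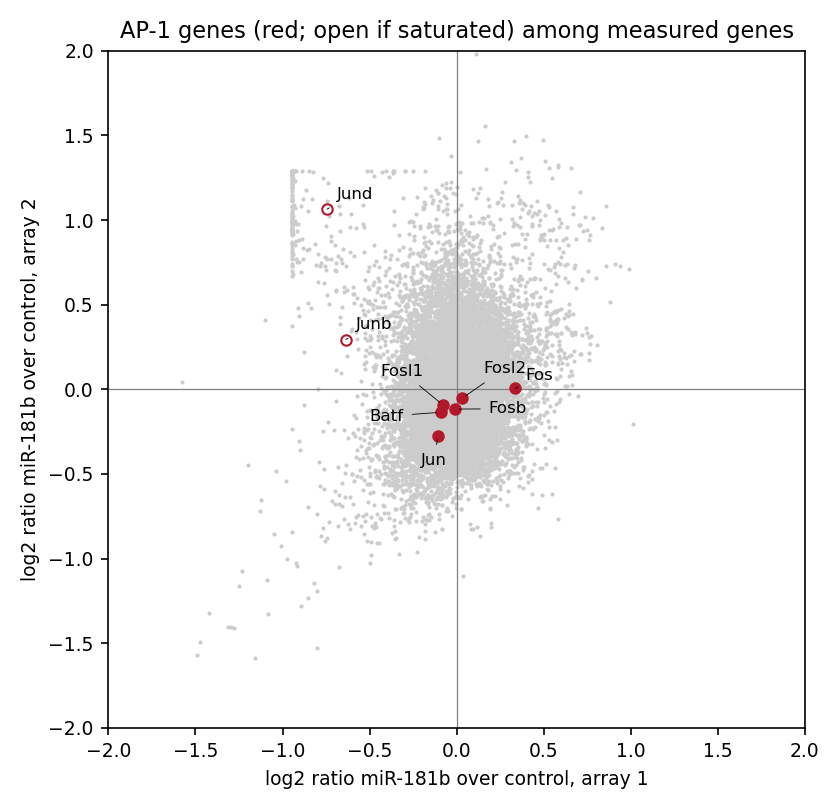
Log2 ratio of miR-181b over control on array 1 (horizontal axis) and array 2 (vertical axis) for the measured genes (grey points; 7 lie outside the plotted range) and the 8 AP-1 genes (red, open where saturated). The 6 unsaturated members lie near the centre of the cloud, and Junb and Jund lie at upper left with other saturated genes.

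Promoter sequence was compared through RefSeq, which gave 250 bases before and 50 after the start for 7 of the 8 members (GRCm38.p6). Motifs were searched on both strands. TGANTCA, the core AP-1 site, was in 0 of the 7 windows and in 7.81% of all windows. TGACNTCA, the form with 1 more base in its middle, was in Jun and in 8.83% of all windows. TGACGT, which overlaps TGACNTCA where N is G, was in Fos and Batf and in 7.51% of all windows. The CArG box, the site of serum response factor, was in 0 of the 7 and in 1.63% of all windows. Sequence more than 250 bases before the start was not searched, so these counts say nothing about motifs farther out. The windows with a match are shown on the gene's strand, with the match in capitals, because no other member window held any of these motifs. A match is a description and not a site of binding.
Jun (chr4:95052251-95052276): gcctcggggTGACATCAtgggctatt
Fos (chr12:85473815-85473838): tccgcccagTGACGTaggaagtcc
Batf (chr12:85686613-85686636): ctaacttgtTGACGTttccgccca
The match starts 45 bases before the start of Jun, 66 before that of Fos and 98 before that of Batf.

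Genes that act with AP-1 gave few larger differences, and the lists that hold them were written with earlier results of these data known and share some genes. Their counts stand beside the same shares of all measured genes, of which 27.4% were lower and 24.4% higher on both arrays, 0.512% past 1.5-fold lower and 0.819% past 1.5-fold higher. Of 29 partners and related leucine zipper factors, 25 were measured. On both arrays 13 were lower and 8 higher, and 0 passed 1.5-fold in either direction. Their median was -0.05. The small Maf gene Maff was at -0.53 ± 0.23 and Batf3, another gene of the BATF family, at -0.46 ± 0.10. Nfil3, a repressor of the same class, was at -0.38 ± 0.30, with another probe at -0.18. Atf5 was at 0.34 ± 0.04. Batf2 was not well above background.

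Of 13 factors that bind composite sites beside AP-1, 12 were measured, with 3 lower and 3 higher on both arrays, 0 past 1.5-fold and a median of 0.03 (array 1 alone, -0.12; array 2 alone, 0.17). Irf4, with which BATF binds DNA, was at 0.36 ± 0.19, and Ets2 was at 0.26 ± 0.08. Stat3 was at -0.47 ± 0.07, but its other probe was at -0.03. Nfatc3 was at -0.22 ± 0.14, with another probe at -0.01.

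Of 33 kinases and GTPases upstream of AP-1, 31 were measured. On both arrays 4 were lower and 7 higher, and 0 passed 1.5-fold. Their median was 0.01. Hras was at 0.37 ± 0.09. The kinase gene Map2k7, which activates the Jun kinases, was at 0.35 ± 0.21, and 2 further probes of it lay between -0.06 and 0.08. Map2k3 was at 0.29 ± 0.28 (0.01 on array 1 and 0.58 on array 2). Map2k2 was at 0.27 ± 0.21 (0.06 on array 1 and 0.49 on array 2).

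Of 15 factors and cofactors that act at the Fos and Jun promoters, 14 were measured. On both arrays 8 were lower and 1 higher (27.4% and 24.4% of all genes were), and 0 passed 1.5-fold. Their median was -0.10 (array 1 alone, -0.12; array 2 alone, -0.18). Mef2b was at 0.43 ± 0.07, with another probe at 0.41. Creb1 and Mef2d were each at -0.27 ± 0.05, although further probes of each lay at -0.06 or above. All 21 genes of AP-1 mRNA and protein turnover were measured, with 3 lower and 5 higher on both arrays, 0 past 1.5-fold and a median of 0.07 (array 1 alone, -0.03; array 2 alone, 0.21). Hnrnpd, which binds AU-rich mRNA, was at 0.31 ± 0.02, with another probe at 0.29. Khsrp was at 0.21 ± 0.15, but its other probe was at -0.0. Det1, a subunit of a ubiquitin ligase of Jun, was at 0.26, and the deubiquitinase gene Usp28 was at -0.32.

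Among 34 genes known as AP-1 targets in various cells, 24 were measured, and on both arrays 9 of them were lower and 3 higher. The median was -0.02. The metallothionein gene Mt2 was past 1.5-fold, at -0.74 ± 0.24 (1.67-fold lower), and it is 1 of 24 where 0.512% of all genes were that low. Mt1 was at -0.42 ± 0.14. The proapoptotic Bcl2l11 was at -0.41 ± 0.20, while its other probes lay between -0.08 and 0.29.

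Immediate early genes outside AP-1, which the same signals switch on, included some with larger values than Fos and Jun. Of 30, 28 were measured. On both arrays 13 were lower and 5 higher (27.4% and 24.4% of all genes were), and 4 were past 1.5-fold lower and 0 higher (0.512% and 0.819% of all genes were). These were Ier3 (-0.74), Egr2 (-0.69), Egr1 (-0.68) and Nr4a1 (-0.63), and each was at or below -0.47 on each array, where Fos was at 0.34 and 0.005. The difference between these genes and the AP-1 members was not tested.

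**Figure D4:**
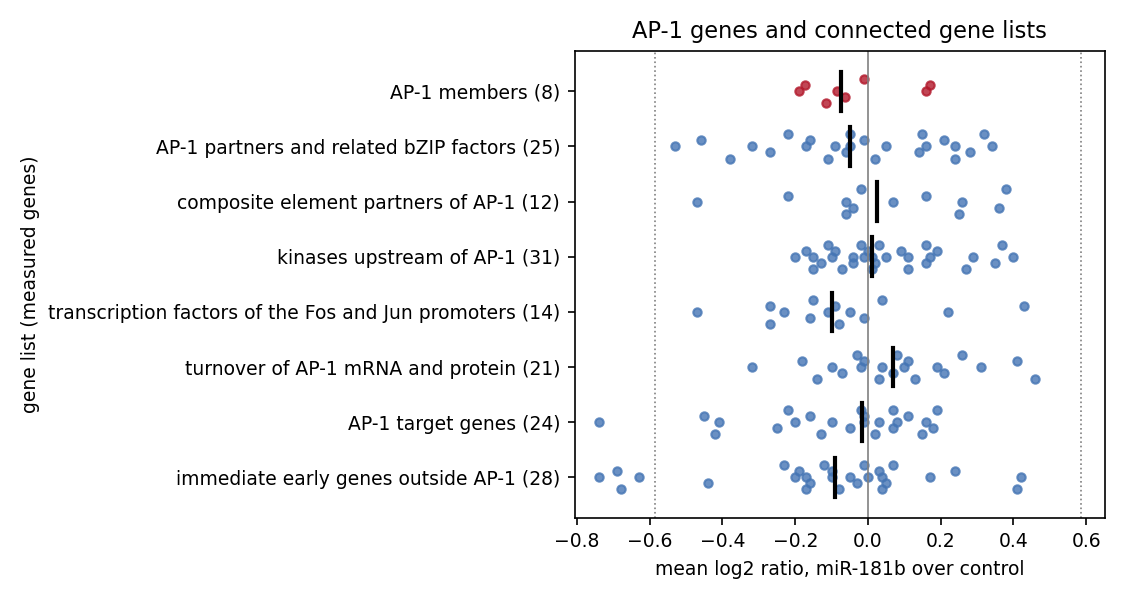
Mean log2 ratio of miR-181b over control (horizontal axis) of each measured gene in the AP-1 family (red) and in 7 connected lists (blue), with the number measured in brackets. Black bars are medians and dotted lines 1.5-fold. The 6 never saturated AP-1 genes lie between -0.19 and 0.17, the points of Junb and Jund are means of ratios clipped at the scanner's ceiling, and the points beyond the dotted line are Mt2 and 4 immediate early genes.

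Marker genes of B cells and of other cells were also compared, as ratios and detection flags that do not identify the cells. All 10 B cell markers were measured, 3 of them saturated. Their median was 0.18, but -0.30 for array 1 and 0.65 for array 2. Of them 0 were lower and 2 higher on both arrays, and 1 passed 1.5-fold, Cd79a, a chain of the B cell receptor complex, at 0.86 ± 0.70 (1.82-fold higher, 0.16 on array 1 and 1.56 on array 2). Of the T cell markers 11 of 11 with a probe were also well above background. Other lists had 1 to 7 measured markers each. The medians of the lists of other cells were between -0.07 and 0.39, where the highest was a single erythroid gene, and no marker of a further cell type passed 1.5-fold except Prg2, an eosinophil granule gene, at 0.70 ± 0.02. Their part in the AP-1 values was not tested. The share of spots detected over background was 64.7% to 67.7% per channel.

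Leaving out loess moved the mean of 5 of the 8 members by more than its ± value. When arrays were only median-centred, the median of all measured genes was -0.20, and the AP-1 median was -0.27, 0.07 below it. Relative to that shift, Jun was at -0.30, Batf at -0.33 and Junb at -0.40, while Fos was at 0.10. Fos had the opposite sign in absolute terms, at -0.10. Under the scanner's own log ratio the 8 members had a median of -0.14, with 5 lower and 0 higher on both arrays, where 27.8% and 24.2% of all genes were. In the authors' deposited table the log2 ratios were -0.10 and -0.30 for Jun, and 0.41 and -0.02 for Fos. Its rows were paired with probes through the scanner's ratio, so these values are not a separate check of that ratio.

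**Figure D5:**
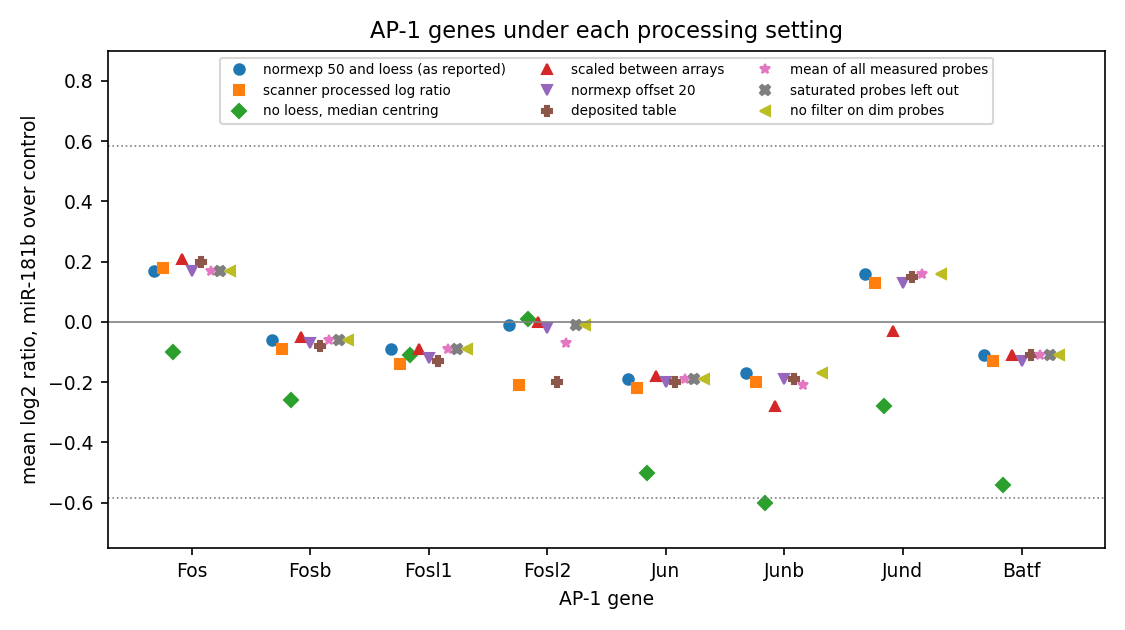
Mean log2 ratio of miR-181b over control (vertical axis) of each AP-1 gene (horizontal axis) under 9 processing settings (symbols), with dotted lines at 1.5-fold. Only Junb without loess, at -0.60, passes the dotted line, and Jun, Fosb, Fosl1 and Batf are negative under all 9 settings. The deposited table was paired with probes through the scanner's ratio, so it is not separate from that setting.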

How the data were processed

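Agilent 2-colour whole mouse genome arrays were read with Agilent Feature Extraction 9.1.3.1, per the file headers. The deposited scanner files give spot intensity (mean signal and local median background, linear scale), a log10 ratio of red over green with its error (log10), and flags (a score of 0 or 1) for background, saturation and outliers. The authors' deposited table holds log2 ratios. Its rows were paired with probes by value and not by name. For all 40929 probes printed once, a row lay within 0.0001 of the scanner's processed log2 ratio plus a constant. The ratio was turned to miR-181b over control, and the constant was 0.0011 on array 1 and 0.0327 on array 2. Each of the 10 AP-1 probes matched 1 row. The deposited values thus follow the scanner's ratio by construction and are not a separate check of it. The column medians of the deposited table are -0.0626 and -0.0704. The steps by which the authors set those constants are not given in the sources used here.

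From the intensities, background was corrected with normexp (offset 50) and within-array loess was fitted without weight on control spots, in R 4.3.3 with limma 3.58.1. Outlier spots were left out, array 2 was turned to the same direction, and spots of a probe were averaged. Levels are log2 intensities after loess and Aquantile scaling. A gene counted as measured if a probe passed the scanner's flag for signal well above background in each channel of each array, and the brightest such probe stood for it. Genes were named through RefSeq by accession (22951 probes), symbol (6659) or synonym (3109), and otherwise by the file's name (8455). Summaries used python 3.11.15, pandas 2.3.3 and numpy 2.4.6. The normalisation and the call rule were tested on simulated data. These had no scanner ceiling and no dye effect that varies with intensity. The test therefore does not cover saturated probes or the removal of such an effect by loess.

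Dye-swapped arrays of 1 RNA per vector count as 1 replicate, so no p-values were computed, and precision is limited by having 2 arrays. The members, the 7 gene lists and the 8 marker lists were chosen with earlier results of these data known. Named were all members, the list genes past the threshold and otherwise up to 4 genes per list with the largest mean of the same sign on both arrays. A gene that this rule names is not reported here. In all, 11 alternatives were planned, and the comparison in Cy3 alone was added after seeing the data.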

Additional observations from a re-analysis of the deposited data

How the results depend on the processing

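The count of AP-1 members past 1.5-fold was 0 in each direction under the scanner's processed ratio, scaling between arrays, an offset of 20, the deposited table, the mean of all probes, saturated probes left out, no filter, a 2-fold threshold and Cy3 alone. Without loess 1 member was lower (Junb, -0.60), where 908 of all genes were lower and 6 higher, against 90 and 144 with loess. The median of the members, -0.07, was -0.14 with the scanner's ratio, -0.27 without loess, -0.10 with an offset of 20, -0.12 in the authors' deposited table and -0.13 in Cy3 alone, which was chosen after seeing the data. The cause was not tested. The scanner's ratio called 203 genes lower and 226 higher over all genes, and the authors' deposited values gave 190 lower and 244 higher. The deposited values were paired with probes through the scanner's ratio and do not count as a separate setting.

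With 1 array left out in turn, the count of lower members ranged from 0 to 2 and that of higher members from 0 to 1, and the median from -0.09 to -0.07. The members past the threshold there were Junb and Jund on array 1 and Jund on array 2, all saturated in Cy5. Over the alternatives with both arrays, 12 of 70 single-gene values moved by more than the SD of the 2 arrays, and 4 changed sign, in 3 genes (Fos, Fosl2 and Jund). The 70 include the values in Cy3 alone, which was not planned and in which Fosl1 and Batf moved. No paired analysis was possible because each vector has 1 RNA, and the arrays repeat that pair.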
